A study of Rattus norvegicus and Homo sapiens with 12 samples.

Results

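MHC class I antigen presentation was described in DU145 prostate cancer cells through 9 genes, which were HLA-B, HLA-C, HLA-E, B2M, TAP1, TAP2, TAPBP, PSMB8 and PSMB9. They were chosen by name as parts of the class I pathway and were found by their Ensembl identifiers on the primary assembly, among the 60107 genes of the human count table. The rule itself uses no measured value, but the genes were proposed with earlier results of these data known. DU145 is an established human prostate cancer cell line, grown here in DMEM with 10% FBS. F0 was the parental line. F2 was the population recovered after repeated culture in conditioned media of human mesenchymal stem cells bought from Lonza (MSC CM), given for 72 h a round with 48 h of recovery in complete media between rounds. The sample labels count 2 rounds and the series description counts 3. Each population gave 3 biological replicates of 1 line, and the labels do not say whether the 3 F2 samples came from separate selections. A p-value here therefore measures the spread between these samples. RNA (500 ng per sample) was profiled by RNA QuantSeq, which reads the 3′ end of polyadenylated transcripts, with single-end reads of 101 bases. The comparison of F2 with F0 addresses what distinguished the cells that had come through the MSC CM from the line they came from.

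MHC class I molecules display short peptides from inside the cell to CD8+ T cells. The proteasome cuts cytosolic proteins into peptides, and in its inducible form, the immunoproteasome, the subunits encoded by PSMB8, PSMB9 and PSMB10 take the place of the constitutive catalytic subunits encoded by PSMB5, PSMB6 and PSMB7. The TAP1 and TAP2 proteins together form the transporter that moves peptides into the endoplasmic reticulum, where tapasin (TAPBP) holds the class I molecule beside it for loading. The finished complex joins a heavy chain (HLA-B, HLA-C or HLA-E among those measured here) to the light chain, beta-2 microglobulin (B2M). Loss of these parts is a well known way for tumor cells to avoid T cells, and interferon signaling raises most of them together. HLA-E is also the ligand of the inhibitory receptor NKG2A on natural killer (NK) cells.

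The inducible and constitutive catalytic subunits are related in sequence, and the comparison of their levels rests on the reads of each pair being told apart. The stretches below show how close each pair is at the active site. Each is the 60 coding bases, read 5′ to 3′, that start at the codon of the catalytic threonine, taken from GENCODE release 29 transcripts on GRCh38. Capitals mark bases that are the same in both genes of a pair.
PSMB8: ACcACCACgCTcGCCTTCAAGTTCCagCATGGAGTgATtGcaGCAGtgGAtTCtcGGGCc
PSMB5: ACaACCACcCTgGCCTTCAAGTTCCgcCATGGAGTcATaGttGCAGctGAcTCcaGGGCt
PSMB9: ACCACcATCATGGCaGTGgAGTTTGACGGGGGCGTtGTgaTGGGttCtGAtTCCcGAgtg
PSMB6: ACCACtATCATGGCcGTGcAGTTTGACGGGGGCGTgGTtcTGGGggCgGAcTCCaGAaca
PSMB10: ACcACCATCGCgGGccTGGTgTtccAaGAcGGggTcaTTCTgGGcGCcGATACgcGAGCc
PSMB7: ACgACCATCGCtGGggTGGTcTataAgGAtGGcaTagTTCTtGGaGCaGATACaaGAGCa
The threonine is codon 73 in PSMB8 and 60 in PSMB5, codon 21 in PSMB9 and 35 in PSMB6, and codon 40 in PSMB10 and 44 in PSMB7. PSMB8 shared 45 of the 60 bases with PSMB5 (75%), PSMB9 shared 46 with PSMB6 (76.7%), and PSMB10 shared 40 with PSMB7 (66.7%). The longest shared run was 13 bases for PSMB8 and PSMB5, 16 for PSMB9 and PSMB6 and 8 for PSMB10 and PSMB7. Over the aligned bases of the coding sequences the identity was 70.5% for PSMB8 and PSMB5 and 66.4% for PSMB9 and PSMB6. For PSMB10 and PSMB7 it was 64.7%. In the last 500 bases of the transcripts, where QuantSeq reads fall, 454, 453 and 415 bases aligned for the same pairs. Of these aligned bases, 64.1%, 64.7% and 66.0% were identical. The partners lie apart in the genome. On GRCh38 the gene PSMB5 is at chr14:23016543-23035230, PSMB6 at chr17:4796144-4798503, PSMB7 at chr9:124353466-124415444 and PSMB10 at chr16:67934502-67937087, whereas PSMB8 and PSMB9 lie within the MHC on chromosome 6.

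Gene counts per library lay between 15879480 and 16479239, so the 6 libraries were of nearly equal depth. The count of a class I gene in 1 library ranged from 86 (PSMB9) to 11906 (B2M). The share of gene counts from mitochondrially encoded genes was 5.86% ± 0.145 in F0 and 10.4% ± 0.201 in F2 (SD, n = 3 each), and it moved with the population. With these genes left out of the fit the calls on the class I genes were again 6 higher and 1 lower. Levels are given in CPM, a gene's count as a share of the TMM-scaled library size, and differences as log2 fold changes of F2 over F0 from the edgeR fit to all tested genes. A gene was called when its Benjamini-Hochberg adjusted p was under 0.05.

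All 9 genes passed the filter on low counts. In F2, 6 of them rose (HLA-B, HLA-C, HLA-E, B2M, TAP2 and PSMB8), TAP1 fell, and TAPBP and PSMB9 did not pass the test. These calls, 77.8% of the 9, stood beside a background of 18.2% of the 14316 genes tested, with 9.49% called higher and 8.67% called lower. The background was not matched for precision. The median SE was 0.061 over the 9 genes and 0.101 over all genes tested, and a smaller SE makes a call easier. Every change was small. None of the 9 reached a 2-fold change, while 239 of the 14316 genes tested were both called and changed by at least 2-fold. The median log2 fold change was 0.19 over the 9 genes and -0.0025 over all genes tested, and the median size regardless of sign was 0.29 against 0.15. Over all called genes that median size was 0.35. The split depends on the scaling of the libraries. With library size alone in place of TMM, 3 genes were called higher (HLA-C, TAP2 and PSMB8) and 3 lower (TAP1, TAPBP and PSMB9), while the median over all genes moved to -0.092. That scaling called 3637 of all genes tested, against 2599 with TMM.

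The values of the 2 populations did not overlap in 8 of the 9 genes, against 34% of all genes tested, a background that was not matched for precision either. An exact two-sided permutation test on 3 against 3 libraries cannot go below p = 0.1, and those 8 genes all gave that value, while TAPBP gave p = 0.4. Summed over the 9 genes, the level was 1412, 1388 and 1383 CPM in F0 and 1516, 1618 and 1516 CPM in F2. Every F2 library was thus above every F0 library. B2M made up 42.7% of this sum in F0 and 44.0% in F2. In bulk RNA a change in all cells and a change in the share of cells that express a gene cannot be told apart.

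**Figure D1:**
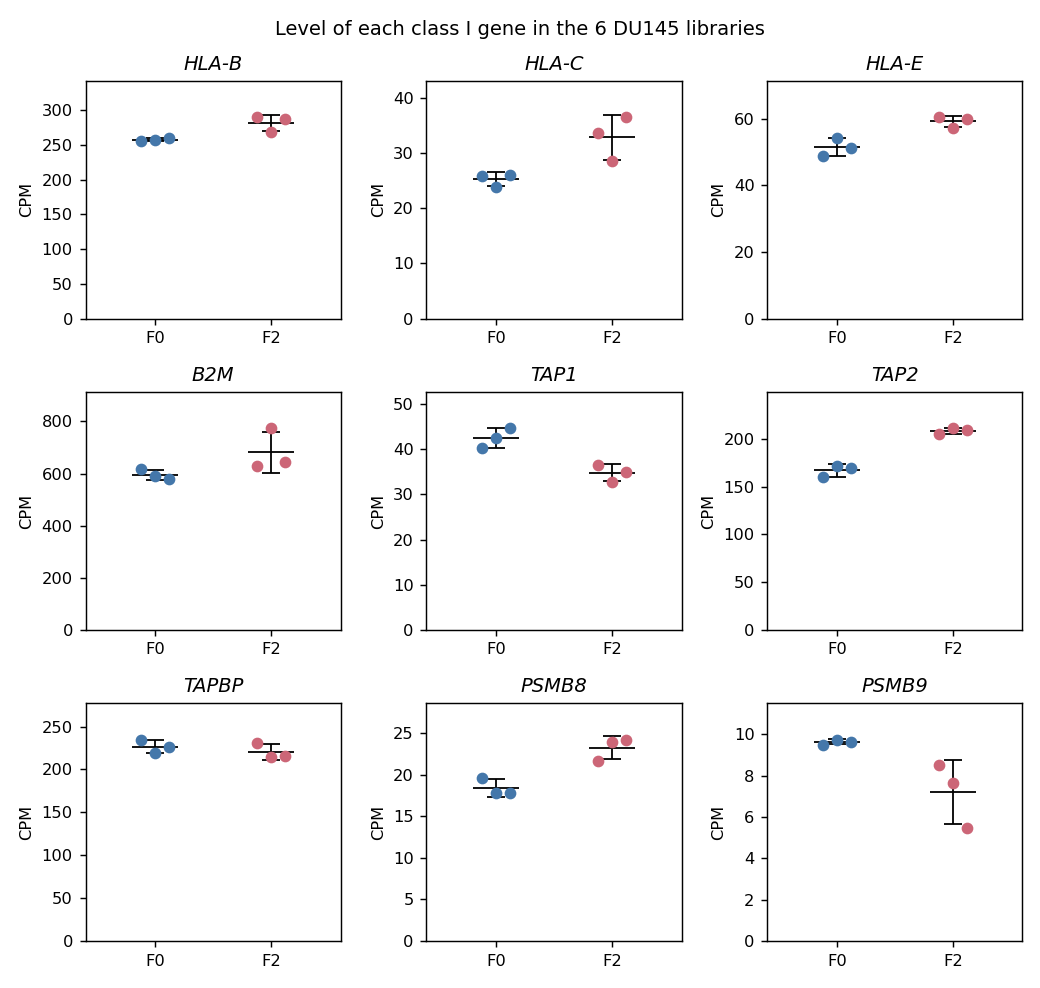
Level of each of the 9 class I genes (CPM, vertical axis from 0) in the 3 F0 and 3 F2 libraries of DU145, 1 panel a gene, with points for libraries and a bar with error bar for the mean ± SD. The points of F0 and F2 are separate in every panel except TAPBP, and TAP1 and PSMB9 are the genes whose F2 points lie below those of F0.

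The classical heavy chain HLA-B, which presents peptides to CD8+ T cells, is annotated at chr6:31269491-31357188 on the minus strand. Its level was 256, 258 and 260.1 CPM in F0 and 290.0, 269 and 287 CPM in F2. The lowest F2 library lay just above the highest F0 library. The F0 mean of 258 ± 2.14 CPM and the F2 mean of 282 ± 11.3 CPM (SD over 3 libraries, as for all means below) gave a log2 difference of 0.13 (SE 0.044, 95% interval 0.037 to 0.22, adjusted p = 0.0488). This was the weakest of the calls. It was lost without any 1 library except F2 replicate 2, with adjusted p = 0.0888 without F0 replicate 1, 0.165 without F0 replicate 2, 0.0850 without F0 replicate 3, 0.209 without F2 replicate 1 and 0.144 without F2 replicate 3, and it was also lost with DESeq2 (0.0563) and with no filter beyond 1 count in all (0.0564). The estimate was 0.040 (adjusted p = 0.551) with library size alone.

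HLA-C, a classical heavy chain that is also the main ligand of killer-cell immunoglobulin-like receptors on NK cells, lies at chr6:31268749-31272130 on the minus strand. It was measured at 25.9, 23.9 and 26.1 CPM in F0 and at 33.6, 28.5 and 36.5 CPM in F2. All F2 values were above all F0 values, and F2 replicate 2 was the nearest to F0. HLA-C averaged 25.3 ± 1.23 CPM in F0 and 32.8 ± 4.03 CPM in F2, which is 0.38 on the log2 scale (SE 0.088, 95% interval 0.19 to 0.56, adjusted p = 0.00496). This was the largest rise among the 9 genes, and it passed the threshold under each of the 13 alternatives, with log2 fold changes from 0.29 to 0.47.

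HLA-E, the nonclassical heavy chain, lies at chr6:30489467-30494205 on the plus strand. The F0 libraries held 48.8, 54.3 and 51.1 CPM and the F2 libraries 60.4, 57.3 and 60 CPM. The groups were apart, with a gap smaller than the range of the F0 values. HLA-E averaged 51.4 ± 2.73 CPM in F0 and 59.2 ± 1.71 CPM in F2, a log2 difference of 0.21 (SE 0.061, 95% interval 0.078 to 0.33, adjusted p = 0.0233). The call was lost when F0 replicate 1 or 3 or F2 replicate 1 or 3 was removed, with adjusted p = 0.0844 without F0 replicate 1, 0.0627 without F0 replicate 3, 0.0974 without F2 replicate 1 and 0.0686 without F2 replicate 3, and with DESeq2 it stood at 0.0542. The estimate with library size alone was 0.12 (adjusted p = 0.180).

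B2M is the light chain that all class I heavy chains need to reach the cell surface, and it lies outside the MHC at chr15:44711487-44718877 on the plus strand. It was the most abundant of the 9 genes, with 617, 592 and 578 CPM in F0 and 629, 773 and 643 CPM in F2. F2 replicate 2 stood well above the other F2 libraries, and F2 replicate 1 was close to the highest F0 library. The mean was 596 ± 19.8 CPM in F0 and 682 ± 79.5 CPM in F2, a log2 difference of 0.19 (SE 0.060, 95% interval 0.069 to 0.32, adjusted p = 0.0287). Removing F2 replicate 2 brought the estimate down to 0.097 (adjusted p = 0.0982), so a single library carried much of it. The call was lost as well without F0 replicate 2 (0.124) and without F0 replicate 3 (0.101), and with library size alone the estimate was 0.11 (adjusted p = 0.220).

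The heavy chains are close in sequence, and the reads of HLA-B and HLA-C may be split unevenly. Their reference coding sequences were 92.5% identical, and the last 500 bases of their transcripts 93.0%. No window of 101 bases in the last 500 was shared exactly with a transcript of another gene, for any of the 9 genes (0 of 400 windows each). That count is for reference alleles, and the alleles of DU145 were not tested. Alignments placed at several positions were left out of the counts, and how many came from these genes was not tested. HLA-E was further from both. Within the last 500 bases, 63.6% of the 423 bases that aligned with HLA-B were identical, and 64.0% of 419 with HLA-C. An annotated read-through transcript of HLA-B also runs over 27 of the last 500 bases of HLA-C on the same strand.

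TAP1 and TAP2 encode the partner subunits of the peptide transporter, and they moved in opposite directions. TAP1, at chr6:32845209-32853978 on the minus strand, was at 40.3, 42.4 and 44.6 CPM in F0 and at 36.6, 32.8 and 35.1 CPM in F2. Every F2 library was below every F0 library. Its averages were 42.4 ± 2.17 CPM and 34.8 ± 1.90 CPM, a log2 difference of -0.29 (SE 0.070, 95% interval -0.43 to -0.14, adjusted p = 0.0073).

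TAP2, at chr6:32821833-32838780 on the minus strand, was at 159.9, 172 and 169 CPM in F0 and at 205, 211 and 209 CPM in F2. The gap between the populations was wider than the range within either. TAP2 averaged 167 ± 6.36 CPM in F0 and 208 ± 3.25 CPM in F2, a log2 difference of 0.32 (SE 0.046, 95% interval 0.22 to 0.42, adjusted p = 5.9e-05). The calls on TAP1 and TAP2 both held under all 13 alternatives, from -0.38 to -0.24 for TAP1 and from 0.23 to 0.34 for TAP2.

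The ratio of TAP1 to TAP2 counts within a library does not depend on scaling. It was 0.252, 0.246 and 0.263 in F0 and 0.179, 0.155 and 0.168 in F2, so all F2 libraries held less TAP1 for each TAP2 count. The geometric mean ratio went from 0.254 to 0.167, a log2 difference of -0.61 (exact two-sided permutation p = 0.1, the smallest possible, adjusted p = 0.167 over 5 ratios chosen after the values were seen). The coding sequences of TAP1 and TAP2 were 69.9% identical over the 1854 bases that aligned. The long noncoding RNA PSMB8-AS1 is annotated over 379 of the last 500 bases of TAP1 on the opposite strand. It had 19, 7 and 13 counts in F0 and 16, 22 and 18 in F2, against 505 to 754 for TAP1. The strand setting of the counting is not given, so these counts cannot show how many reads of TAP1 were set aside as ambiguous.

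Tapasin, which bridges the transporter and the class I molecule, is encoded by TAPBP at chr6:33299694-33314387 on the minus strand. Its level was 235, 219 and 226 CPM in F0 and 231, 214 and 216 CPM in F2. The populations overlapped, and the highest F2 value was exceeded by a single F0 library. The means were 227 ± 7.96 and 220.3 ± 9.02 CPM, a log2 difference of -0.042 (SE 0.047, 95% interval -0.14 to 0.057, adjusted p = 0.597). Among the alternatives, library size alone was the one under which TAPBP passed the threshold (-0.13, adjusted p = 0.0451).

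**Figure D2:**
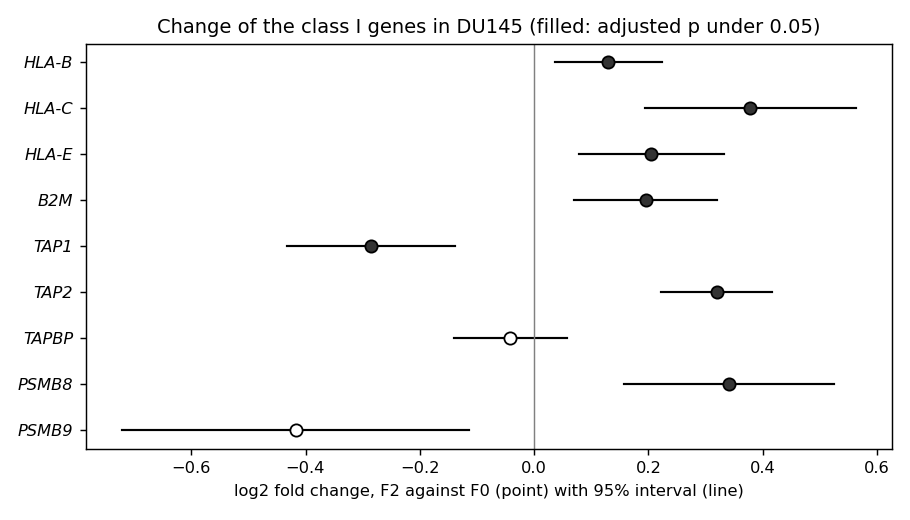
Log2 fold change of F2 against F0 (horizontal axis) for the 9 class I genes, as points with 95% intervals, filled where the adjusted p was under 0.05 (n = 3 libraries each). HLA-C, PSMB8 and TAP2 lie furthest to the right at 0.38, 0.34 and 0.32, TAP1 lies at -0.29 and the interval of TAPBP spans 0.

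The estimates for the immunoproteasome subunits PSMB8 and PSMB9 also had opposite signs, and only PSMB8 was called. PSMB8, at chr6:32840717-32844703 on the minus strand, had 332, 293 and 300 counts in F0 and 339, 368 and 380 in F2, or 19.6, 17.7 and 17.8 CPM and 21.7, 23.9 and 24.2 CPM. F0 replicate 1 and F2 replicate 1 were the nearest across the gap. The averages were 18.4 ± 1.07 CPM and 23.3 ± 1.39 CPM, and the log2 difference was 0.34 (SE 0.088, 95% interval 0.16 to 0.52, adjusted p = 0.00992). It passed under 12 of 13 alternatives, and without F0 replicate 2 the adjusted p was 0.0559 at a log2 fold change of 0.32.

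PSMB9, whose gene record spans chr6:32844136-32859585 on the plus strand, was the lowest of the 9 genes, with 161, 161 and 163 counts in F0 and 133, 118 and 86 in F2. In CPM these were 9.51, 9.75 and 9.65 in F0 and 8.50, 7.66 and 5.48 in F2. All F2 libraries were below F0, and F2 replicate 3 was far below the other F2 libraries. The means were 9.63 ± 0.122 and 7.22 ± 1.56 CPM, a log2 difference of -0.42 (SE 0.15, 95% interval -0.72 to -0.11), and the adjusted p of 0.0527 just missed the threshold. It passed under 4 of 13 alternatives, among them the fit without F2 replicate 1 (-0.55, adjusted p = 0.0284) and that with library size alone (-0.51, adjusted p = 0.0160). Removing F2 replicate 3 left -0.25 (adjusted p = 0.255).

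Set against the constitutive subunit it replaces, PSMB8 had a larger share in every F2 library than in any F0 library. PSMB8 made up 6.33, 5.77 and 5.90% of the counts of PSMB8 and PSMB5 together in F0 and 7.51, 8.67 and 8.41% in F2. The log2 ratio of PSMB8 to PSMB5 went from -3.97 ± 0.074 to -3.49 ± 0.12, a difference of 0.48 with no overlap (exact two-sided permutation p = 0.1, the smallest possible, adjusted p = 0.3 over the 3 pairs). The constitutive PSMB5 was itself lower in F2, at -0.14 (adjusted p = 0.0279), a call that held with F0 replicate 3 removed and was lost when any other library was.

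The pair of PSMB9 and PSMB6 did not separate. PSMB9 made up 1.72, 1.86 and 1.97% of the pair in F0 and 2.03, 1.75 and 1.34% in F2, and the log2 ratio was -5.73 ± 0.10 in F0 and -5.87 ± 0.31 in F2 (difference -0.14, exact permutation p = 0.7, adjusted p = 0.9). Without F2 replicate 3 the difference was 0.029. PSMB6 fell by 0.30 on the log2 scale (adjusted p = 1.7e-04), so PSMB9 and its counterpart both had lower values in F2. PSMB10, which replaces PSMB7, had only 10, 18 and 29 counts in F0 and 14, 19 and 15 in F2. Its ratio to PSMB7 differed by -0.11 (exact permutation p = 0.9), and without F0 replicate 3 by 0.28, so no change could be read at this depth.

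**Figure D3:**
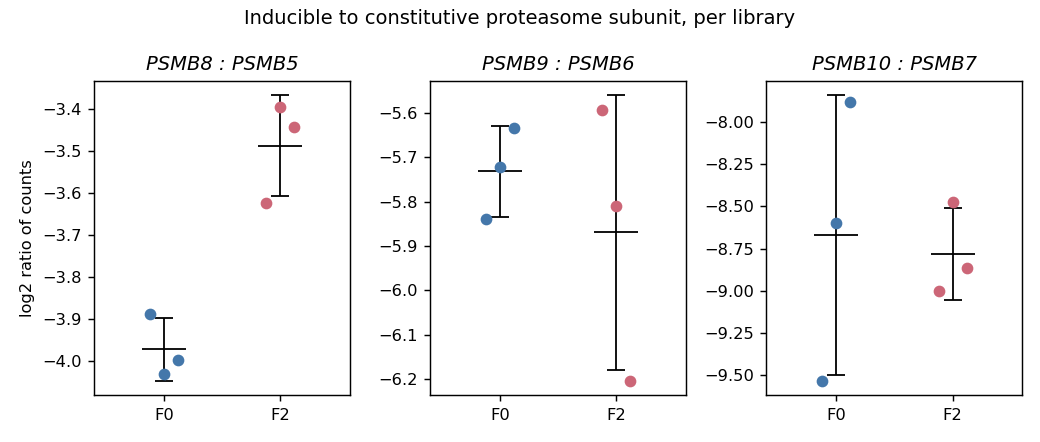
Log2 ratio of the counts of each inducible proteasome subunit to its constitutive counterpart (vertical axis, scaled separately in each panel) in the 3 F0 and 3 F2 libraries, with the mean ± SD. The F2 points lie above all F0 points for PSMB8 to PSMB5 and overlap them for PSMB9 to PSMB6 and PSMB10 to PSMB7.

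TAP2, PSMB8, TAP1 and PSMB9 are neighbors in the class II region of the MHC, within 37.8 kb of chromosome 6. The start of the PSMB9 transcript used here is 183 bases from that of TAP1, and the genes run away from each other, TAP1 on the minus strand and PSMB9 on the plus strand. This closely spaced pair had the lower values in F2 (-0.29 for TAP1, called, and -0.42 for PSMB9, not called). PSMB8 starts 1162 bases beyond the end of TAP1 and TAP2 starts 1990 bases beyond the end of PSMB8, and these were the ones that rose (0.34 and 0.32). The order along the chromosome thus went with the direction in these 4 genes, as a description of 4 points.

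**Figure D4:**
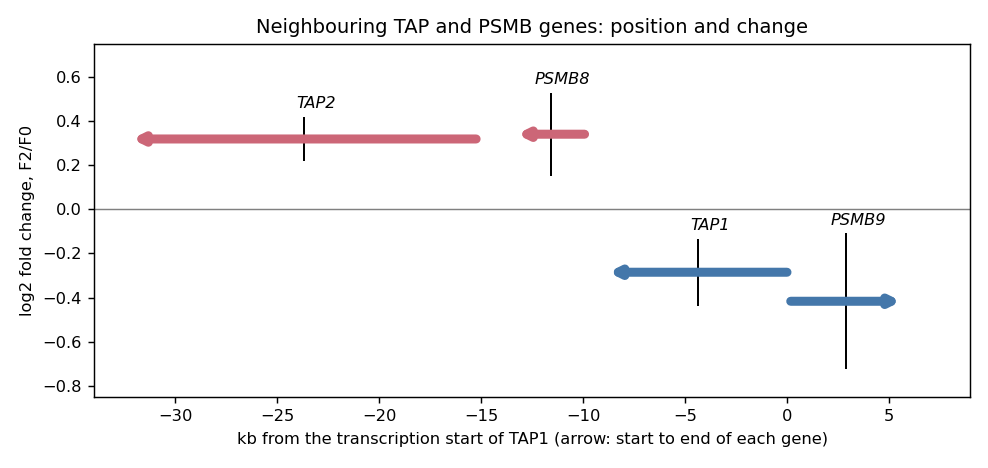
Position of TAP2, PSMB8, TAP1 and PSMB9 in kb from the transcription start of TAP1 (horizontal axis, arrows from start to end of each transcript) and log2 fold change of F2 over F0 (vertical axis, with 95% intervals). TAP1 and PSMB9, whose starts are 183 bases apart, lie below 0 and PSMB8 and TAP2 lie above it.

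The ratio of PSMB9 to PSMB8 counts was 0.485, 0.549 and 0.543 in F0 and 0.392, 0.321 and 0.226 in F2. All 3 F2 libraries were below F0 (log2 difference -0.78, exact permutation p = 0.1, adjusted p = 0.167 over the same 5 ratios). The geometric mean ratio of HLA-C to HLA-B was 0.0979 in F0 and 0.116 in F2 (log2 difference 0.24, exact permutation p = 0.1, adjusted p = 0.167 over the same 5 ratios). The populations were narrowly apart, the highest F0 ratio being 0.101 and the lowest F2 ratio 0.106. The split of reads between these genes is uncertain, as given above. The ratio of HLA-E to HLA-B (0.199 and 0.210, exact permutation p = 0.3) and that of B2M to HLA-B (2.31 and 2.41, exact permutation p = 0.9) did overlap between populations.

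The order of the 9 genes by level was the same in F0 and F2, from B2M through HLA-B, TAPBP, TAP2, HLA-E, TAP1, HLA-C and PSMB8 to PSMB9. These levels are tags from 3′ ends and were not divided by transcript length. In F0 the libraries of each gene lay apart from those of the next in the order. In F2 the values of TAP1 (32.8 to 36.6 CPM) and HLA-C (28.5 to 36.5 CPM) overlapped, the former having fallen and the latter risen.

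The rest of the pathway was read from 9 lists of 97 genes, of which 81 were tested. Of these, 9 were called higher and 11 lower, which is 24.7% of those tested beside 18.2% of all genes, and the median log2 fold change was 0.013. With library size alone the split was 7 higher and 23 lower, in a fit that called 3637 of all genes tested against 2599 with TMM. Of the 20 called genes, 14 passed under every alternative run.

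Among 9 genes of peptide loading and quality control, 1 was called (11.1%, beside 18.2% of all genes tested). TAPBPL, which encodes the peptide editor TAPBPR, had 77, 44 and 59 counts in F0 and 92, 93 and 90 in F2, a log2 fold change of 0.72 (adjusted p = 0.00905), and the call was lost without F0 replicate 2. The chaperones calreticulin (CALR, 0.064), calnexin (CANX, -0.076) and the disulfide isomerase PDIA3 (0.10) did not pass the test, nor did the aminopeptidases that trim peptides in the endoplasmic reticulum, ERAP1 (-0.063) and ERAP2 (-0.017). None of the 8 genes of cytosolic peptide trimming was called by edgeR or DESeq2, and 1 of them, the large cytosolic peptidase TPP2, had an unadjusted p under 0.05 in edgeR (0.20, adjusted p = 0.0759). With library size alone, 3 of these genes were called lower.

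Of the 14 constitutive subunits of the 20S proteasome core, 4 fell and none rose (28.6% called, beside 18.2% of all genes tested). These were PSMB3 (-0.32, adjusted p = 0.00335), PSMB4 (-0.19, adjusted p = 0.00206), PSMB5 and PSMB6, and the median of the list was -0.027. Scaling by library size alone gave 7 called lower. None of the 5 inducible proteasome partners was called by edgeR or DESeq2, and with library size alone 2 were called lower. In edgeR 1 had an unadjusted p under 0.05. This was the proteasome activator subunit PSME1, which like PSMB8 responds to interferon, at -0.15 (adjusted p = 0.0529), and its partner PSME2 was at -0.071 (adjusted p = 0.436).

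Among other class I and class I-like heavy chains, HLA-F had 142 to 241 counts in F0 and 152 to 206 in F2 and was not called (0.14, adjusted p = 0.607). PROCR, the endothelial protein C receptor, was the 1 called gene of the 5 tested (0.41, adjusted p = 0.00501). That share of 20% was near the 18.2% called over all genes tested. HLA-G, a nonclassical heavy chain, had 3 counts in 1 library and none in the others.

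Of the 12 tested regulators of class I transcription, 1 rose and 2 fell. That share of 25% was near the 18.2% called over all genes tested. With library size alone none was called higher and 4 lower, and with DESeq2 none higher and 1 lower. NFYB, a subunit of the NF-Y factor that binds class I and class II promoters, fell from 65.7 ± 4.58 to 49.0 ± 1.88 CPM (-0.42, adjusted p = 9.4e-05). RFX5, a subunit of the RFX factor that acts beside it, fell by 0.26 on the log2 scale (adjusted p = 0.0396), and EZH2, the methyltransferase of the repressive H3K27 mark, rose by 0.17 (adjusted p = 0.0384). The calls on RFX5 and EZH2 were each lost in 4 of the 6 fits without a library and with DESeq2, and that on EZH2 also with library size alone (0.080). NLRC5, the transactivator of class I genes, had 36, 34 and 35 counts in F0 and 37, 49 and 50 in F2 (0.48, adjusted p = 0.147), and CIITA, the transactivator of class II genes, had 2 counts in 1 library. IRF1, which interferon induces, was at -0.18 (adjusted p = 0.198).

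In interferon signaling, 4 of 14 tested genes fell and 1 rose, so 35.7% were called, beside 18.2% of all genes tested. A subunit of the receptor for each of the 3 interferon types was among those that fell. These were IFNGR2 (-0.34, adjusted p = 8.1e-04), IFNAR2 (-0.23, adjusted p = 0.0122) and IL10RB (-0.37, adjusted p = 7.8e-04), which pairs with IFNLR1 to bind IL-28. Whether these 3 genes fell independently of each other was not tested. The partner chains of IFNGR2 and IFNAR2, IFNGR1 (0.015, adjusted p = 0.952) and IFNAR1 (0.016, adjusted p = 0.894), did not pass the test. IFNLR1 itself, the IL-28 receptor alpha chain, was at 45, 56 and 41 counts in F0 and 39, 43 and 46 in F2 (-0.043, adjusted p = 0.921). SOCS3, a feedback inhibitor that STAT3 induces, rose from 16.7 ± 1.21 to 22.1 ± 1.52 CPM (0.41, adjusted p = 0.00392). The call on IFNAR2 was lost without F0 replicate 2 and without F2 replicate 3.

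The largest change in the lists was in a ligand that T cells read beside class I. CD274, which encodes PD-L1, had 83, 123 and 90 counts in F0 and 211, 214 and 210 in F2. All F2 libraries were far above F0, and the mean rose from 5.89 ± 1.37 to 13.6 ± 0.269 CPM (log2 fold change 1.21, SE 0.14, adjusted p = 4.5e-06). Of 10 tested ligands of NK and T cells, 4 rose and 1 fell (50% called, beside 18.2% of all genes tested). CD47, the signal against phagocytosis, rose by 0.43 (adjusted p = 1.1e-05), PVR, which DNAM-1 and TIGIT bind, by 0.38 (adjusted p = 2.2e-05) and MICB, a ligand of NKG2D, by 0.22 (adjusted p = 0.00871, lost with library size alone). NECTIN2, which shares its receptors with PVR, fell by 0.36 on the log2 scale (adjusted p = 9.3e-04).

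**Figure D5:**
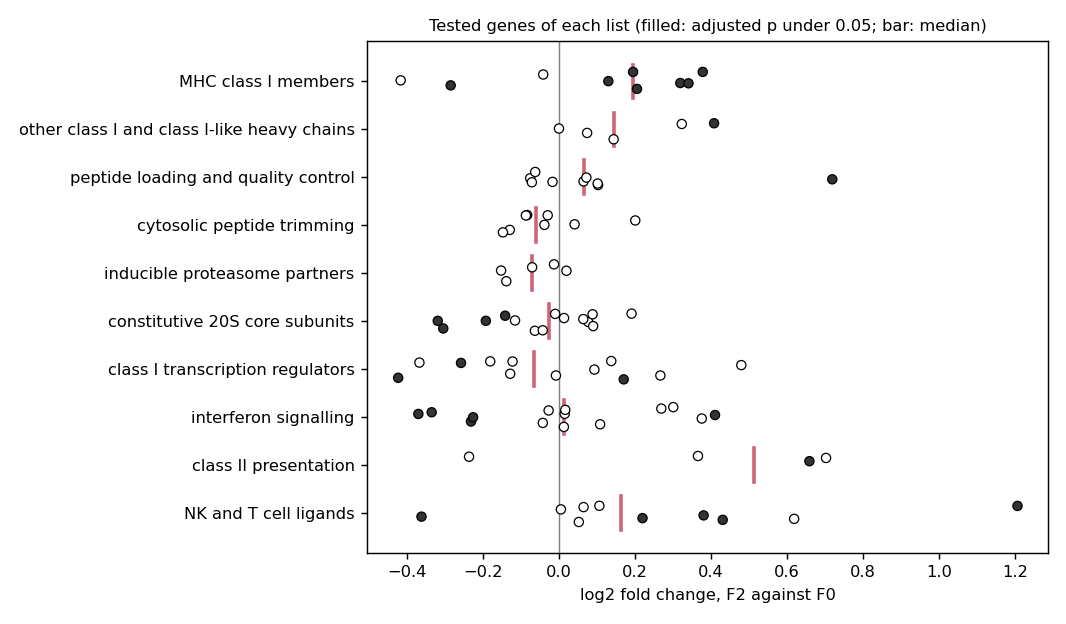
Log2 fold change of F2 over F0 (horizontal axis) for each tested gene of the class I genes and the 9 pathway lists, filled where the adjusted p was under 0.05, with a bar at the median of each list. The median of the class I genes lies at 0.19, those of the 9 lists run from -0.071 to 0.51, the highest being class II presentation (4 genes), and CD274 at 1.21 stands furthest to the right.

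The libraries were checked against markers of the labeled line and of cells that could have come with it. The epithelial keratins KRT8, KRT18 and KRT19 and EPCAM were present in all 6 libraries, and the summed level of the epithelial list was 1025 to 1097 CPM in F0 and 1325 to 1334 CPM in F2. Within that list the adhesion gene CDH1 went the other way, from 14.0 ± 1.79 to 5.78 ± 0.0915 CPM. The leukocyte list, of cells in which class I genes are high, summed to 1.36 to 1.65 CPM in F0 and 0.767 to 1.21 CPM in F2, and its defining genes PTPRC and CD3E were at 0 in all 6 libraries. The MSC list summed to 158 to 178 CPM in F0 and 223 to 241 CPM in F2, nearly all of it NT5E (158 ± 9.49 and 222 ± 10.3 CPM). FN1 was lower in F2 (-0.52, adjusted p = 0.0406), COL1A1 (-0.36, adjusted p = 0.390) and LEPR (-0.42, adjusted p = 0.204) did not pass the test, and COL1A2, with 9, 17 and 11 counts in F0 and 2, 4 and 2 in F2, was too low to be tested. Another 5 of its 12 genes, THY1, LUM, POSTN, SPARC and CXCL12, were at 0 in all 6.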

How the data were processed

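RNA QuantSeq libraries of F0 and F2 DU145 (3 each) were used. The authors deposited raw counts of reads per gene for each library, without normalization. The submitters' processing notes name STAR 2.5.2a, HTSeq 0.6.0 and GRCh38. The annotation release and the strand setting are not given in the sources used here. Of 60107 listed genes, 56104 were paired with a symbol and 56531 were found in GENCODE release 29, which gave positions and transcript sequences. Lines that name no gene stayed out of library sizes. They included reads outside genes (9.81% of uniquely placed reads in F0 and 11.6% in F2), ambiguous reads (1.50% and 1.39%) and 92 spike-in RNAs at 0 counts. The largest class was alignments placed at several positions, at 0.604 per gene count in F0 and 0.551 in F2 (means over libraries). Which genes these came from was not tested. The rat PAIII table was not analysed, since its identifiers could not be paired with names here.

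Everything else was computed from the deposited counts with R 4.3.3, edgeR 4.0.16, limma 3.58.1, DESeq2 1.42.0 and Python 3.11.15. Low genes were removed with filterByExpr (its settings were a count of 10 and a total of 15). After TMM scaling, the others were compared between F2 and F0 with the two-sided quasi-likelihood test of edgeR. The p-values were adjusted by the method of Benjamini and Hochberg over all 14316 tested genes. Levels in CPM use the TMM-scaled library sizes. Ratios of counts were compared by exact permutation of the 6 libraries. The code was tested on simulated data with known changes. Named genes were the 9 class I genes, list genes past the threshold, both genes of each catalytic pair, class I pseudogenes and overlapping genes with counts, and the 5 genes most alike in profile. Other list genes are named for their role and were picked after their values were seen. The class I genes and the lists were chosen with earlier results of these data known. Duplicate reads from PCR are still in the counts. No replicate pair agreed within sampling noise (chi-square per degree of freedom 2.20 to 5.95). Some genes of the lists are not reported here.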

Additional observations from a re-analysis of the deposited data

How the results depend on the processing

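The 13 alternatives were 7 other ways of processing and 6 fits that each left out 1 library. HLA-C, TAP1 and TAP2 passed the threshold in all 13. With library size alone, the class I genes called higher fell to 3 and those called lower became 3, their median log2 fold change was 0.11, and 23 genes of the pathway lists were called lower. That fit called 3637 genes in all, against 2599 in the main fit. With no filter beyond 1 count in all, 5 class I genes were called higher and 2 lower. With the replicate block 2 were also called lower, PSMB9 being added (adjusted p = 0.0318), with 6 called higher. Samples sharing a replicate number did not all deviate together (correlations 0.17, -0.039 and 0.17 over 8650 genes). Samples with unlike numbers gave -0.20 to 0.066, so these values do not settle whether the numbers pair the samples. The main fit did not pair them, and it called 2599 genes in all, against 2867 with the replicate block. DESeq2 called 4 class I genes higher and 1 lower, and 1911 genes in all. Leaving out 1 library gave 3 to 5 class I genes called higher and 1 to 2 called lower, and 1670 (without F0 replicate 2) to 2621 genes called in all. The log2 ratio of PSMB8 to PSMB5 differed by 0.44 to 0.55, that of PSMB9 to PSMB6 by -0.28 to 0.029, where it reversed without F2 replicate 3, and that of PSMB10 to PSMB7 by -0.54 to 0.28, where it reversed without F0 replicate 3. The cause was not tested. The 10 to 29 counts of PSMB10 limit its ratio.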

Other observations

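MHC class II genes were mostly near the floor in these epithelial cells, and 4 of 13 listed genes were tested. HLA-DRB1, the beta chain of HLA-DR, had 105, 99 and 94 counts in F0 and 146, 135 and 156 in F2, and it rose from 5.92 ± 0.326 to 9.35 ± 0.590 CPM (log2 fold change 0.66, adjusted p = 0.00132). Its partner chain HLA-DRA had at most 2 counts in a library. HLA-DQB1 had 71 to 91 counts in F0 and 91 to 102 in F2 (0.37, adjusted p = 0.108). CD74, the invariant chain that class II molecules need, had 12, 12 and 9 counts in F0 and 6, 4 and 7 in F2 and was too low to be tested.

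Among 12 annotated class I pseudogenes, HLA-V alone had enough counts to be tested. It had 27, 25 and 22 counts in F0 and 58, 32 and 46 in F2 (log2 fold change 0.98, adjusted p = 0.0125). HLA-L had 8 counts in each F0 library and 13, 8 and 20 in F2. HLA-J, HLA-H and HLA-K had at most 5 counts in a library.

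The mean standardized profile of the class I genes over the 6 libraries was most like those of WHAMM (Pearson r = 0.996), FBXO22 (0.992), CENPI (0.992), ZBTB4 (0.991) and GHITM (0.990), among 8642 genes compared. That mean mixes genes with opposed profiles. The correlation was -0.967 between TAP1 and PSMB8, for example, and 0.957 between HLA-B and HLA-C. A correlation above 0.9 was found for 552 genes, which all share the same 6 libraries, so these values are a description.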
